A study of Mus musculus with 3 samples.

Results

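Prostaglandins and leukotrienes are signalling lipids made from arachidonic acid. The cyclooxygenases Ptgs1 and Ptgs2 turn arachidonic acid into a shared precursor, from which terminal synthases make prostaglandin E2 (Ptges), prostacyclin (Ptgis) or prostaglandin D2 (Ptgds and Hpgds), and Hpgd inactivates prostaglandins. In the parallel branch, Alox5 works with its partner protein Alox5ap to make leukotriene A4, which Ltc4s joins to glutathione to give leukotriene C4. In wounded skin these lipids act on blood vessels, pain fibres and incoming leukocytes, and Ptgs2 is the inducible cyclooxygenase, known as a rapid response gene of inflammation, whereas Ptgs1 is made at a steadier level in many tissues.

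The 10 enzyme genes named above were listed by function and found by Ensembl ID among the 32285 genes of the count tables. All 10 had UMIs (unique molecular identifiers, each counting 1 captured RNA molecule) in the cells used, from 497 for Ptgds to 97934 for Ptgs2. Wounds in the back skin of male adult C57BL/6J mice were harvested on Days 3, 7 and 14 after injury, and the labels name no transgene and no treatment. Tissue from several wounds was pooled for each day and gave 1 single-cell RNA library, so the days have no replicates and no difference between them could be tested. The intervals given are 95% counting intervals, which do not cover the variation between animals or between libraries. Those of levels, ratios and shares of UMIs count each UMI as independent, so they also leave out the variation between cells. The study's methods describe full-thickness punch wounds, and the description of the series names an incision.

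The libraries held 5158, 22924 and 16611 barcodes on Days 3, 7 and 14, of which 4360, 19590 and 13510 were used as cells. Classes were named from standard markers after clustering without the enzyme genes. In these classes 11 of 11 macrophage markers and 8 of 8 fibroblast markers were found in at least 10% of their own cells. Ly6g was under this share in the neutrophil-like cells and Xcr1 and Clec9a in the dendritic cell-like cells. The naming rule itself counts markers at this share, so it is no independent check of the classes. Neutrophil-like cells made up 19.9%, 8.60% and 0.170% of the cells on Days 3, 7 and 14, macrophage-like cells 62.1%, 48.6% and 23.9%, and fibroblast-like cells 9.52%, 30.3% and 54.6%. Fibroblast-like cells were deep on Day 3, with a median of 44272 UMIs a cell against 10258 on Day 7 and 9610 on Day 14, so levels are given as CPM (UMIs of a gene for every 1000000 UMIs of the class or library). Of all UMIs they held 56.4%, 62.9% and 73.8% on Days 3, 7 and 14, and macrophage-like cells 34.1%, 27.0% and 12.8%. The share of a gene's UMIs in a class is to be read against these. At most 0.834% of the barcodes of the smaller library of any pair recurred in the other library.

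The sequences before the starts of the 2 cyclooxygenase genes are shown because these genes differed in the classes and days in which they were high. The 250 bases before the RefSeq start were read from GRCm38.p6, the assembly of build mm10, on the plus strand, at chr1:150099781-150100030 for Ptgs2 and chr2:36230176-36230425 for Ptgs1. Capitals mark every match, on either strand, to the C/EBP palindrome TTGCGCAA, the GC box GGGCGG, the short site CGTCA or the TATA box TATAAA, which do not overlap in these windows.
Ptgs2: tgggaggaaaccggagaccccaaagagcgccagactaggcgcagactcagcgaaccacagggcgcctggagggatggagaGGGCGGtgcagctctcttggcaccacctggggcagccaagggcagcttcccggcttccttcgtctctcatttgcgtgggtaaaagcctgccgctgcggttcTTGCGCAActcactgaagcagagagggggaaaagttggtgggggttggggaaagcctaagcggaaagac
Ptgs1: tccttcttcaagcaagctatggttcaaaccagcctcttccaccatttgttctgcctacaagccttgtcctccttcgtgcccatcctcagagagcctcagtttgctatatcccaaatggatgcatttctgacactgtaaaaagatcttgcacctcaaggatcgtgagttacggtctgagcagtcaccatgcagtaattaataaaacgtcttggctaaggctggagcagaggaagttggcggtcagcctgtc
Just after the RefSeq start of Ptgs2, at chr1:150100036-150100065, a run of 30 bases holds CGTCA, the core that cyclic AMP response elements share. All windows are placed by the annotated start, and where transcription begins was not measured.
Ptgs2 start: caccactaCGTCAcgtggagtccgctttac
The Ptgs2 window thus held TTGCGCAA, GGGCGG and CGTCA, and the Ptgs1 window held none of the 4 motifs. Over the 300-base windows of all 32851 promoters in the table (250 bases before and 50 after each start), TTGCGCAA was in 0.183%, GGGCGG in 35.7%, CGTCA in 20.8% and TATAAA in 13.6%. Of the 8 enzyme genes with a promoter in the table, Ptgs2 was the only one with TTGCGCAA and the only one with CGTCA. The GC box was also in Ptges, Hpgd and Alox5, and the TATA box was in Hpgd. The bases before the start were 61.6% G or C in Ptgs2 and 48.0% in Ptgs1, against a median of 52.4% over all promoters. These matches describe letters and were not tested as binding sites.

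**Figure D1:**
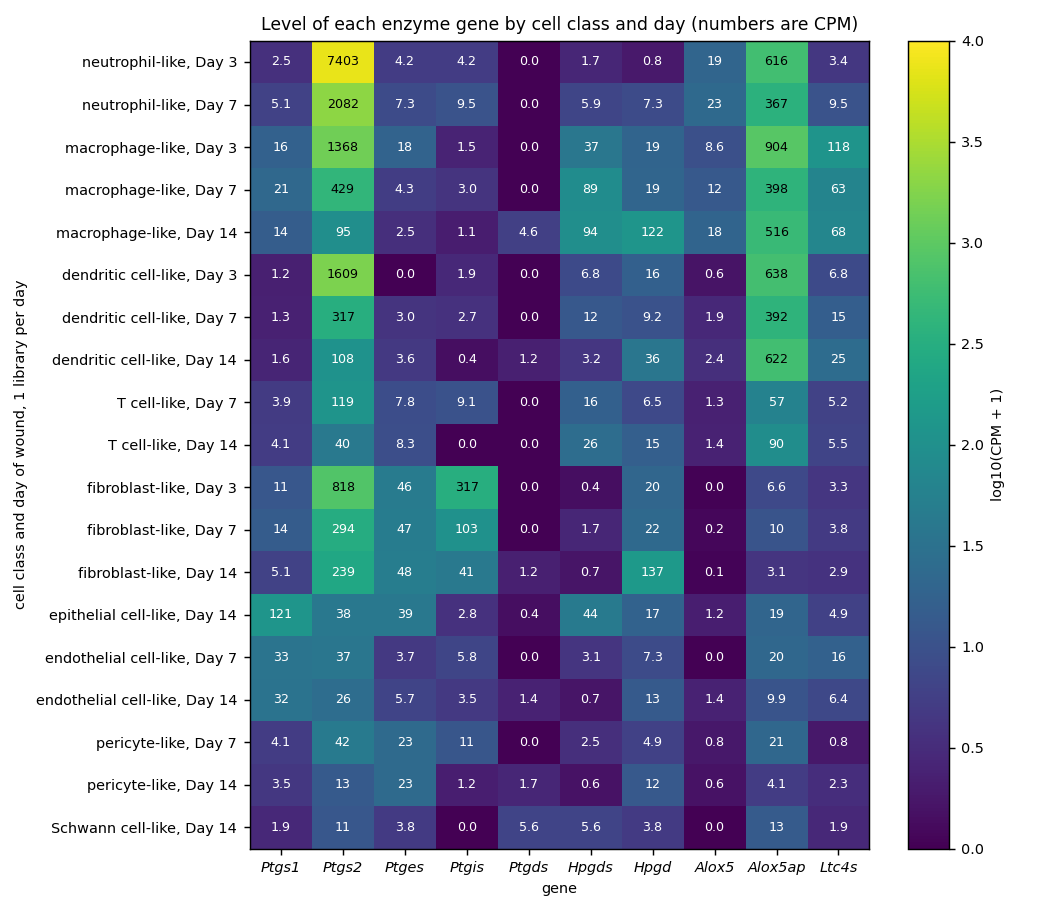
Level of the 10 enzyme genes (columns) in each named cell class with at least 50 cells in a library (rows), as CPM; the colour is log10(CPM + 1). Ptgs2 ran highest in neutrophil-like cells (7403 and 2082 CPM), among these named classes Ptgis ran highest in fibroblast-like cells (317, 103 and 40.8 CPM; the unnamed cells, not drawn, held 355, 108 and 19.0 CPM), and Hpgd stood out on Day 14 in fibroblast-like and macrophage-like cells.

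Ptgs2 (chr1:150100031-150108227, plus strand) fell over the 3 days in every class in which it was high. Its level over the whole library was 1247, 345 and 196 CPM on Days 3, 7 and 14. As the mean of single-cell CPM the second library step was steeper, at a log2 ratio of -1.71 in place of -0.82. The neutrophil-like cells of Day 3 held 7403 CPM (interval 7249 to 7560), and those of Day 7 held 2082 CPM (2007 to 2160). These were its highest levels of any class, and 23 neutrophil-like cells remained on Day 14.

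In macrophage-like cells Ptgs2 was 1368, 429 and 94.6 CPM on Days 3, 7 and 14, and in dendritic cell-like cells 1609, 317 and 108 CPM. Day 7 over Day 3 gave log2 ratios of -1.83 for neutrophil-like cells (-1.89 to -1.77), -1.67 for macrophage-like cells (-1.71 to -1.64) and -2.35 for dendritic cell-like cells (-2.45 to -2.25). The next step, Day 14 over Day 7, gave -2.18 for macrophage-like cells (-2.27 to -2.10) and -1.55 for dendritic cell-like cells (-1.75 to -1.36). When each library was clustered alone, the Day 7 over Day 3 ratio of the dendritic cell-like cells was -0.44.

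The fibroblast-like cells took another course after Day 7. Their Ptgs2 level was 818 CPM on Day 3, 294 CPM on Day 7 and 239 CPM on Day 14, so that the fall was 2.78-fold in the first interval and 1.23-fold in the second. The class lay in different clusters on each day: clusters 9 and 14 held 235 and 168 of its 415 cells on Day 3, clusters 8 and 10 held the most on Day 7 (2243 and 1239), and clusters 11 and 10 on Day 14 (2587 and 1776). Within clusters 9 and 14 Ptgs2 fell from 1044 to 478 CPM and from 620.1 to 223 CPM in the first interval. Between Days 7 and 14 the 5 fibroblast-like clusters that could be compared did not move together. Cluster 15, led by Akr1c18 and Smpd3, rose from 303 to 564 CPM (log2 ratio 0.90, 0.82 to 0.97), cluster 11, led by Cilp and Thbs4, went from 227 to 270.1 CPM, cluster 10, led by Col6a5 and Gdf10, was at 226 and 225 CPM, and cluster 8, led by Prss35 and Tnn, fell from 264 to 160 CPM. Cluster 22 was lowest, at 17.1 and 46.8 CPM, with an interval that held 0 (log2 ratio 1.45, -0.44 to 4.52). Its class name rests on 5 of the 8 fibroblast markers and is less sure, since each other fibroblast-like cluster met all 8. Fibroblast-like cluster 25, led by Wfdc12 and Gal, of whose 1464 cells 1428 were from Day 14, held 61.0 CPM there.

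A single macrophage-like cluster also went against the fall of its class. Cluster 1, led by Arg1 and Ppbp, had 1644 CPM of Ptgs2 on Day 3 and 2210 CPM on Day 7 (log2 ratio 0.43, 0.37 to 0.48). The other 3 macrophage-like clusters measured on both days fell. Cluster 0, led by Chil3 and Ly6c2, went from 1623 to 767 CPM, cluster 2 from 324 to 275 CPM and cluster 5 from 204 to 143 CPM. Their log2 ratios of -1.08, -0.24 and -0.51 were each a smaller fall than the -1.67 of the class. Cluster 1 held 1415 of the 2708 macrophage-like cells on Day 3 and 695 of the 9519 on Day 7. Between Days 7 and 14 all 7 macrophage-like clusters that could be compared fell, by 0.65 to 3.14 on the log2 scale. Cluster 5, led by Fcna and Cd163, had the lowest Ptgs2 of the 4 macrophage-like clusters measured on Day 3, 204 CPM.

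Most Ptgs2 UMIs came to lie in fibroblast-like cells. On Day 3 these held 37.0% (36.5 to 37.4), macrophage-like cells 37.4% (36.9 to 37.8) and neutrophil-like cells 19.7%. The first 2 shares thus overlapped, and the macrophage-like share was 24.7% with each library clustered alone. On Day 7 fibroblast-like cells held 53.7% and macrophage-like cells 33.6%. On Day 14 fibroblast-like cells held 90.2% (89.8 to 90.6), or 85.9% with another random seed, and macrophage-like cells 6.19%. Fibroblast-like cells held 56.4%, 62.9% and 73.8% of all UMIs on Days 3, 7 and 14. Their Ptgs2 share was thus under their share of all UMIs on Days 3 and 7 and above it on Day 14. With the class make-up of Day 7 applied to all 3 days, the library level would be 1052, 345 and 183 CPM, against 1247, 345 and 196 CPM measured.

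When each cell was thinned to 500 UMIs, so that depth was equal, a Ptgs2 UMI was found in 77.4% of neutrophil-like cells on Day 3 (74.5 to 80.2) and 51.3% on Day 7, against 86.9% and 59.7% unthinned, at median depths of 1230 and 717 UMIs. The same thinned share in macrophage-like cells was 31.6%, 13.4% and 3.56% on Days 3, 7 and 14, and in fibroblast-like cells 27.2%, 11.0% and 9.09%. Pericyte-like cells of Day 14, in which the gene was low, had 1.18% thinned and 3.76% unthinned at a median of 3927 UMIs. RNA freed from neutrophils can enter other droplets, and S100a9, one of the neutrophil markers, was used to gauge it. If all S100a9 UMIs of the Day 3 macrophage-like and fibroblast-like cells had come from neutrophil-like cells, these would have brought 16.5 and 9.74 CPM of Ptgs2, against the 1368 and 818 CPM measured.

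Ptgs1 (chr2:36230426-36252272, plus strand) showed no such fall over the whole library and was highest in another class. Its library level was 12.2, 15.4 and 13.6 CPM on Days 3, 7 and 14. It was 11.3, 13.5 and 5.06 CPM in fibroblast-like cells, a log2 ratio of -1.42 (-1.60 to -1.24) for the second step, and its fibroblast-like peak was in cluster 15, at 41.7 CPM on Day 7 and 16.4 CPM on Day 14. In macrophage-like cells it was 16.3, 21.4 and 14.1 CPM, and the second step changed from -0.60 to 0.06 with each library clustered alone. Its highest level in a named class was in the epithelial cell-like cells of Day 14, at 121 CPM (112 to 131), and endothelial cell-like cells held 33.1 CPM on Day 7 and 31.9 CPM on Day 14, which did not differ beyond their intervals. On Day 14, 46.1% of its UMIs were in epithelial cell-like cells, a class of 1 cell on Day 3, 47 on Day 7 and 735 on Day 14.

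Within the Day 14 epithelial cell-like cells Ptgs1 followed the keratins of differentiation. The 309 cells with more Krt1 and Krt10 UMIs (keratins of the upper epidermis) had 242 CPM (222 to 262), and the 406 cells with more Krt14 and Krt5 UMIs (keratins of the basal layer) had 19.1 CPM (14.2 to 25.1). Ptgs2 ran the other way, at 21.6 CPM in the first and 53.6 CPM in the second. The split is a range and not a pair of cell types, and 40 of the 735 cells lay within 2-fold of the dividing line. When these cells were thinned to 2000 UMIs, which left out 91 shallower ones, Hpgds was found in 14 of 107 cells with a Ptgs1 UMI (13.1%, 7.34 to 21.0) and 30 of 537 without (5.59%, 3.80 to 7.88), and the intervals overlap.

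**Figure D2:**
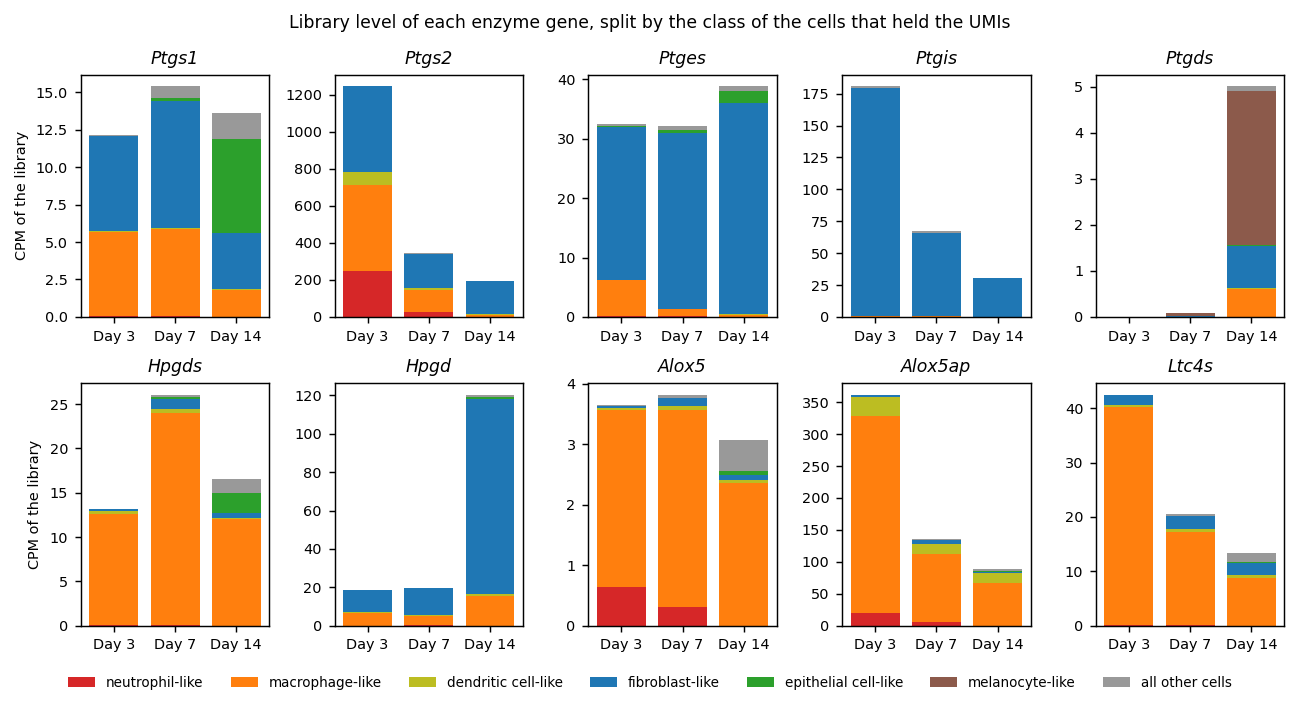
Library CPM of each enzyme gene on Days 3, 7 and 14 (bar height, linear from 0, a scale for each gene), split by the class whose cells held the UMIs. The Ptgs2 bar shrank from 1247 to 196 CPM and came to be held by fibroblast-like cells, Hpgd rose to 120.3 CPM on Day 14, and Hpgds, Alox5, Alox5ap and Ltc4s lay mostly in macrophage-like cells.

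The terminal synthases parted by class. Ptgis, prostacyclin synthase (chr2:167191805-167240604, minus strand), lay in fibroblast-like cells, which held 98.8%, 96.9% and 98.1% of its UMIs on Days 3, 7 and 14. With another random seed its share there was 91.5% on Day 7 and 88.8% on Day 14. Its level there fell from 317 CPM (309 to 325) to 103 CPM (101 to 106) and then to 40.8 CPM (39.3 to 42.3), log2 ratios of -1.62 and -1.34. In macrophage-like cells it was 1.49, 2.96 and 1.12 CPM, and 2.09, 3.78 and 1.94 CPM is what their Col1a1 UMIs would bring if all came from fibroblast-like cells. The unnamed low-depth cells of Day 3, a group of 98 with fibroblast markers, held 355 CPM on 52 UMIs, and the 350 unnamed cells of Day 7 held 108 CPM. The library ratio of Day 7 over Day 3 was -1.43, and -0.16 when single-cell CPM values were averaged.

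The decline of Ptgis was seen inside fibroblast-like clusters too. Cluster 9, led by Saa3 and Prg4, went from 333 to 166 CPM between Days 3 and 7, and cluster 14, a cycling cluster led by Ube2c and Ccna2, from 305 to 118 CPM. Between Days 7 and 14 Ptgis fell in 3 of 4 clusters compared, and cluster 15 held 92.0 and 86.6 CPM. The log2 ratios of clusters 8, 10 and 11 were -0.92, -0.88 and -0.68, each a smaller fall than the -1.34 of the class and short of 2-fold. Clusters 22 (led by Slc26a7 and Wif1) and 25 of Day 14 had 2.34 and 1.40 CPM, which are the low end among fibroblast-like clusters.

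Ptges, the inducible prostaglandin E synthase (chr2:30889471-30929863, minus strand), was at a like level in fibroblast-like cells on the 3 days while Ptgs2 fell. It was 45.9 CPM on Day 3 (43.0 to 49.0), 47.2 CPM on Day 7 (45.5 to 48.9) and 48.3 CPM on Day 14 (46.7 to 49.9), with log2 ratios of 0.04 (-0.07 to 0.15) and 0.03 (-0.04 to 0.10). The clusters compared between Days 7 and 14 went both ways: clusters 22 and 15 were higher on Day 14 (85.5 to 167 CPM and 49.8 to 61.3 CPM), cluster 8 was lower (44.6 to 26.2 CPM), and the intervals of clusters 10 and 11 held 0. Cluster 22, whose class name rests on 5 of 8 fibroblast markers, stood above the rest on Day 14, at 167 CPM (150 to 186). Macrophage-like cells had 17.7, 4.26 and 2.48 CPM, a log2 ratio of -2.06 (-2.40 to -1.73) from Day 3 to Day 7. Their Arg1 and Ppbp cluster, the only one with enough UMIs to compare, went from 35.1 to 23.4 CPM (log2 ratio -0.59, -1.09 to -0.11), and it held 1415 of the 2708 macrophage-like cells on Day 3 and 695 of the 9519 on Day 7. Epithelial cell-like cells of Day 14 had 38.6 CPM and pericyte-like cells 23.1 CPM.

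Ptgs2 and the synthases were looked for in the same fibroblast-like cells after thinning to 5000 UMIs. This left out 21, 557 and 1516 shallower cells on Days 3, 7 and 14. Ptges was found in 16.4% of Day 3 cells with Ptgs2 and 21.0% without, 21.4% and 19.5% on Day 7, and 19.9% and 18.6% on Day 14, pairs whose intervals overlap. Ptgis was found in 38.0% with Ptgs2 and 30.3% without on Day 7, and in 21.0% (19.3 to 22.8) and 13.2% (12.1 to 14.3) on Day 14. On Day 3 both Ptgis shares were high, 72.3% and 69.6%. All these shares pool clusters that differ in both genes, and shares within clusters were not measured. On Day 14 cluster 15 held 564 CPM of Ptgs2 and 86.6 CPM of Ptgis, and cluster 10 held 225 and 48.0 CPM.

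The 2 prostaglandin D synthases did not share a class. Ptgds (chr2:25466709-25470046, minus strand), the lipocalin-type enzyme, had 0, 9 and 488 UMIs in the 3 libraries. Of the 488 UMIs of Day 14, 326 were in 14 melanocyte-like cells (66.8%, 62.4 to 71.0), all of which held the gene, with a median of 15 UMIs a cell. In macrophage-like cells 49 of the 58 UMIs were in 1 cell, and in fibroblast-like cells 44 of the 89. Both classes also held Dct UMIs, a gene of pigment cells, at 15.8 and 2.61 CPM against 17998 CPM in the melanocyte-like cells. On Day 7, 8 of the 9 UMIs were in the 1 melanocyte-like cell of that library. When up to 20% mitochondrial UMIs were allowed, no cluster was named melanocyte-like.

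Hpgds (chr6:65117293-65144908, minus strand), the haematopoietic enzyme, had most of its UMIs in macrophage-like cells. Its level in macrophage-like cells was 36.9 CPM on Day 3 (33.5 to 40.5), 88.7 CPM on Day 7 (85.1 to 92.3) and 94.1 CPM on Day 14 (88.8 to 99.7), so the rise came before Day 7 (log2 ratio 1.27, 1.12 to 1.41). These cells held 95.3%, 91.9% and 73.0% of its UMIs. The levels followed the clusters: on Day 7 the clusters led by Fcna and Cd163, by Il10 and Slamf7, and by Cx3cr1 and Cd72 had 139, 133 and 120.2 CPM, and the clusters led by Chil3 and Ly6c2 and by Retnla and Lyz1 had 13.2 and 8.05 CPM. Within clusters the Day 7 over Day 3 ratio ran from -0.80 in the Arg1 and Ppbp cluster to 0.52 in the cluster led by Atp6v0d2 and Rnf128, all smaller than the 1.27 of the whole class.

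In epithelial cell-like cells of Day 14 Hpgds was 44.1 CPM (38.5 to 50.3), and 88.7 CPM in those with more Krt1 and Krt10 UMIs against 6.00 CPM in those with more Krt14 and Krt5 UMIs. Without the 4 epithelial cell-like cells that held Cd207, the first value was 79.3 CPM. In fibroblast-like cells it was 0.399, 1.73 and 0.681 CPM on Days 3, 7 and 14, where macrophage RNA by C1qb would bring 0.123, 1.87 and 0.450 CPM.

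Hpgd, the dehydrogenase that inactivates prostaglandins (chr8:56294585-56321043, plus strand), moved late and upward. Its library level was 18.5, 19.8 and 120.3 CPM. In fibroblast-like cells it was 20.1, 22.0 and 137 CPM (Day 14 interval 135 to 140.2), in macrophage-like cells 18.7, 19.1 and 122 CPM (116 to 129), and in dendritic cell-like cells 16.1, 9.16 and 36.1 CPM. The Day 14 over Day 7 log2 ratio was 2.64 (2.56 to 2.72) in fibroblast-like cells, while macrophage-like cells gave 2.68 (2.53 to 2.83) and dendritic cell-like cells 1.98 (1.39 to 2.59). Between Days 3 and 7 the ratios of the first 2 classes were 0.13 and 0.03, with intervals that hold 0. With each library clustered alone, the macrophage-like ratio of those days became 1.03.

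The rise of Hpgd was seen in 7 of 7 macrophage-like clusters and 4 of 5 fibroblast-like clusters that could be compared between Days 7 and 14. Among macrophage-like clusters it ran from 1.27 in the Chil3 and Ly6c2 cluster (40.6 to 97.6 CPM) to 3.65 in the Fcna and Cd163 cluster (19.0 to 239 CPM) on the log2 scale, and the Cx3cr1 and Cd72 cluster reached 255 CPM. Among fibroblast-like clusters, cluster 10 went from 28.3 to 119 CPM, cluster 11 from 28.1 to 117 CPM, cluster 15 from 27.9 to 89.0 CPM and cluster 8 from 18.8 to 53.6 CPM. Their log2 ratios of 2.07, 2.06, 1.68 and 1.51 were each under the 2.64 of the class. The exception, cluster 22, had 85.5 CPM on Day 7 in 63 cells (41.0 to 157) and 65.9 CPM on Day 14. Cluster 25, with 1428 cells on Day 14 and 36 on Day 7, too few to compare, held the highest level of the fibroblast-like clusters, 258 CPM (250 to 267).

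Free fibroblast RNA, measured by Col1a1, would bring 6.53 CPM of Hpgd to the macrophage-like cells of Day 14, against 122 CPM measured. For T cell-like cells it would bring 20.5 CPM against 15.2 CPM, and for pericyte-like cells 12.1 CPM against 12.2 CPM, so no level of their own can be read there. After thinning to 500 UMIs, 5.89% of fibroblast-like (5.37 to 6.46) and 5.36% of macrophage-like cells (4.61 to 6.20) of Day 14 held an Hpgd UMI, against 41.0% and 27.5% unthinned, and 0.471% of pericyte-like cells. In Day 14 fibroblast-like cells thinned to 5000 UMIs, Hpgd was found in 26.8% of cells with Ptgs2 (25.0 to 28.7) and 36.8% of cells without (35.2 to 38.4). On Day 7 these shares were 9.04% (7.92 to 10.3) and 7.78% (6.85 to 8.80), and on Day 3 they were 6.64% and 7.97%, with overlapping intervals on both days. The shares pool all fibroblast-like clusters, which differ in both genes, and shares within clusters were not measured.

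**Figure D3:**
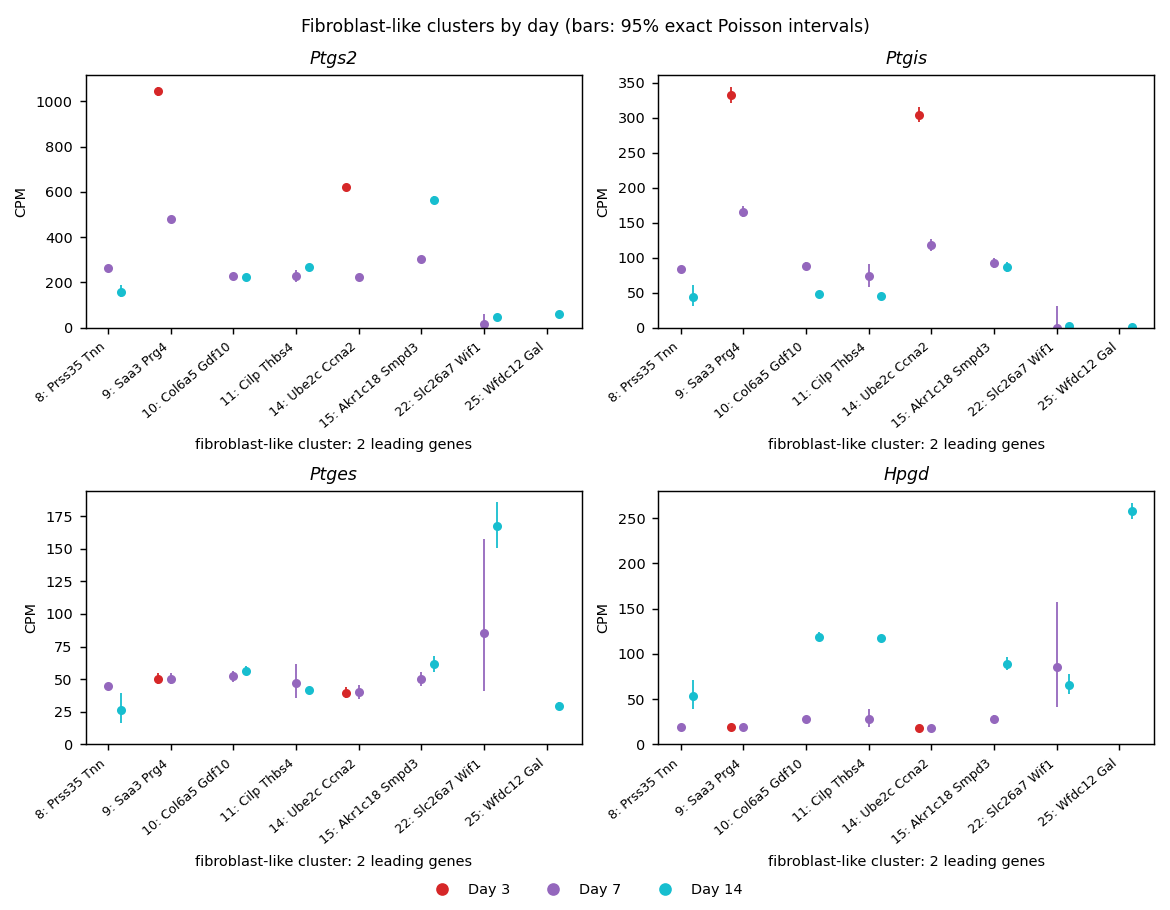
CPM of Ptgs2, Ptgis, Ptges and Hpgd (vertical axes, linear from 0) in the fibroblast-like clusters with at least 50 cells on a day; points are libraries of Days 3, 7 and 14 and bars are 95% exact Poisson intervals. Ptgs2 of cluster 15 rose from 303 to 564 CPM, Ptges stood highest in cluster 22 at 167 CPM, and Hpgd was highest in cluster 25 at 258 CPM. Cluster 22 was named from 5 of 8 fibroblast markers, the others from all 8.

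The leukotriene genes were held mostly by neutrophil-like, macrophage-like and dendritic cell-like cells, which together had 92.7% of the Alox5ap, 78.6% of the Alox5 and 69.5% of the Ltc4s UMIs of Day 14, the lowest share of the 3 days for each. Alox5ap, the partner protein of 5-lipoxygenase (chr5:149264767-149288153, plus strand), was the most abundant of them, at 904, 398 and 516 CPM in macrophage-like cells on Days 3, 7 and 14. In dendritic cell-like cells it was 638, 392 and 622 CPM, and in neutrophil-like cells 616 and 367 CPM on Days 3 and 7. All 3 classes were thus lower on Day 7 than on Day 3, with log2 ratios of -1.18, -0.70 and -0.75, and the first 2 were higher again on Day 14 (0.37 and 0.67). The neutrophil-like fall was not seen within cluster 18, at 375 and 373 CPM, and cluster 12, whose 427 cells were all but 21 from Day 3, held 893 CPM. With each library clustered alone, the Day 7 over Day 3 ratio of the dendritic cell-like cells turned to 2.53.

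The library level of Alox5ap fell without that return, from 362 to 135 to 88.6 CPM. With the class make-up of Day 7 the Day 14 level would be 174 CPM. The fall to Day 7 was seen in 4 of 4 macrophage-like clusters compared, by 0.67 to 1.23 on the log2 scale. Within dendritic cell-like cells the Cd209a and Ffar2 cluster had 759, 515 and 735 CPM and the Ccl22 and Ccr7 cluster, whose genes mark migrating dendritic cells, had 45.8, 44.2 and 10.7 CPM. In fibroblast-like cells Alox5ap was 6.63, 10.1 and 3.14 CPM, where macrophage RNA by C1qb would bring 3.01, 8.39 and 2.47 CPM. With doublets kept, the fibroblast-like log2 ratios of 0.61 and -1.68 became 1.82 and -0.65.

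Alox5, 5-lipoxygenase itself (chr6:116410077-116461178, minus strand), was scarce, with 811 UMIs over all cells used. Macrophage-like cells had 8.58 CPM (7.01 to 10.4), 12.1 CPM (10.8 to 13.4) and 18.3 CPM (16.0 to 20.9) on Days 3, 7 and 14, and held 80.0%, 85.3% and 76.6% of its UMIs. Neutrophil-like cells had 19.4 CPM (12.3 to 29.2) and 22.7 CPM (15.4 to 32.2), which overlap. The highest macrophage-like level was in the Fcna and Cd163 cluster on Day 14, 34.9 CPM. In fibroblast-like cells it was 0.0499, 0.191 and 0.111 CPM, on 1, 12 and 8 UMIs.

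Ltc4s, leukotriene C4 synthase (chr11:50236461-50238616, minus strand), was 118, 63.2 and 67.9 CPM in macrophage-like cells on Days 3, 7 and 14, with intervals of 112 to 124, 60.2 to 66.3 and 63.4 to 72.6 CPM. Fibroblast-like cells held 4.37%, 11.7% and 15.9% of its UMIs, at 3.29, 3.81 and 2.89 CPM, where macrophage RNA by C1qb would bring 0.393, 1.33 and 0.325 CPM. With doublets kept, their share was 19.2% on Day 7 and 24.3% on Day 14, and their Day 7 over Day 3 log2 ratio of 0.21 became 0.93. The Fcna and Cd163 cluster, whose leading genes also include Lyve1 and Folr2, known from resident tissue macrophages, was high on all 3 days, at 225, 194 and 168 CPM. The Arg1 and Ppbp cluster went from 168 CPM on Day 3 to 33.0 CPM on Day 7 (log2 ratio -2.35, -2.74 to -1.97), the steepest fall among the 4 macrophage-like clusters compared. In dendritic cell-like cells it was 6.82, 14.6 and 24.7 CPM, and on Day 14 the Ccl22 and Ccr7 cluster held 120.2 CPM (87.7 to 161), on 45 UMIs, against 7.19 CPM in the Cd209a and Ffar2 cluster.

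Pairs of leukotriene genes were looked for in macrophage-like cells thinned to 1000 UMIs, with all clusters pooled. This left out 222, 838 and 220 shallower cells on Days 3, 7 and 14. On Day 3 Alox5ap was found in 73.4% of cells with Ltc4s (67.3 to 78.8) and 58.2% without (56.1 to 60.2), and on Days 7 and 14 the 2 shares had overlapping intervals. Alox5 was found in 3.64% of Day 7 cells with Ltc4s (2.09 to 5.84) and 1.09% of those without (0.879 to 1.34), and in 2.46% (0.908 to 5.28) and 0.491% (0.245 to 0.876) on Day 3. On Day 14 it was found in 5 of 201 cells with Ltc4s and 56 of 2806 without, shares with overlapping intervals. Hpgds and Ltc4s showed overlapping intervals on all 3 days.

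**Figure D4:**
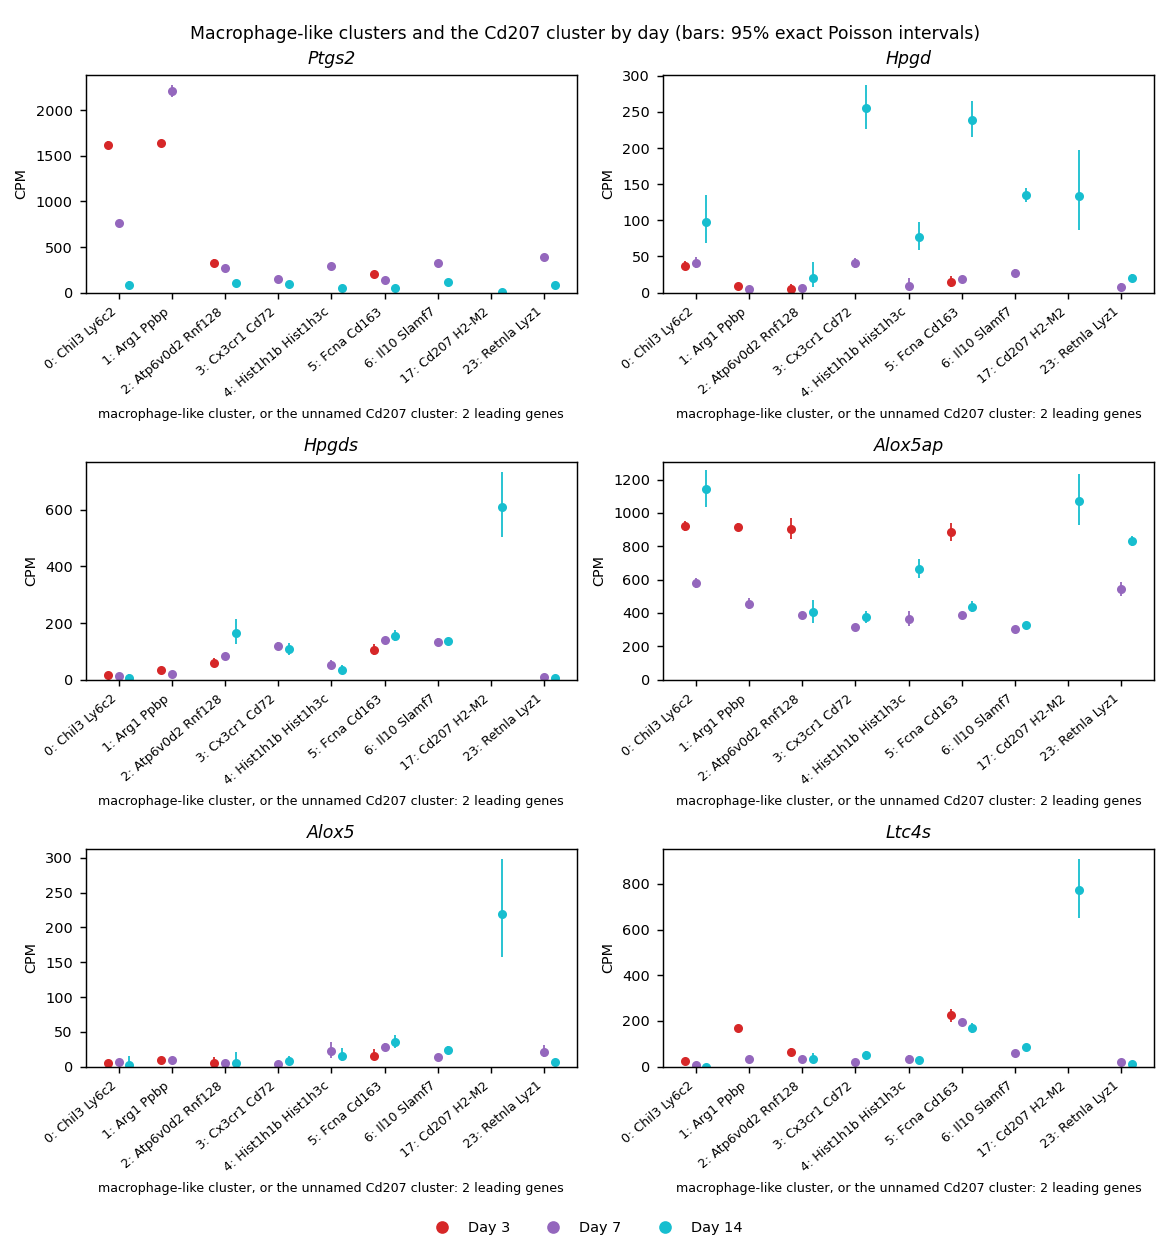
CPM of Ptgs2, Hpgd, Hpgds, Alox5ap, Alox5 and Ltc4s (vertical axes, linear from 0) in the macrophage-like clusters and, under number 17, the 41 cells led by Cd207 (40 from Day 14 and 1 from Day 7, drawn as Day 14); bars are 95% exact Poisson intervals. The Cd207 cells stand above the macrophage-like clusters in Hpgds, Alox5 and Ltc4s, the Arg1 and Ppbp cluster rose in Ptgs2 from 1644 to 2210 CPM, and Hpgd rose on Day 14.

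A small cluster held several of the enzyme genes at once. It had 40 cells on Day 14, 0.296% of that library's cells and 0.189% of its UMIs, was led by Cd207, which encodes langerin, and by Epcam, and was left without a class name because its markers were split between macrophage and epithelial cell. Its levels rest on 184150 UMIs and fewer than 50 cells. Ltc4s was 777 CPM there (654 to 915), Hpgds 614 CPM (506 to 738), Ptgs1 570.2 CPM (466 to 690.2), Alox5 223 CPM (160 to 302) and Alox5ap 1075 CPM (931 to 1236). Ptgs2 had 2 UMIs, and Ptges, Ptgis and Ptgds had 0, and 3 counts, taken as the limit that 0 allows, would be 16.3 CPM. These 40 cells held 13.7% of the Alox5 UMIs of the library (10.0 to 18.1), 10.9% of Ltc4s, 7.93% of Ptgs1 and 7.02% of Hpgds. If all Cd207 UMIs of the epithelial cell-like cells were carried over from this cluster, they would bring 1.28 CPM of Ptgs1 and 1.38 CPM of Hpgds, against 121 and 44.1 CPM measured.

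Mast cells are known makers of prostaglandin D2 and leukotriene C4, and few were captured: 1, 5 and 28 mast cell-like cells on Days 3, 7 and 14. These were set cell by cell, as cells with UMIs of at least 3 mast cell markers, whatever their cluster. On Day 14 Hpgds was 94.5 CPM in them (45.3 to 174), on 10 UMIs, a level whose interval holds that of the macrophage-like cells. Ltc4s had 0 UMIs there, where the same limit of 3 counts would be 28.3 CPM, and Alox5ap had 4 and Ptgs1 5 UMIs.

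Counted over the 10 genes, with a change taken as at least 2-fold between libraries that together held 50 UMIs of the gene, 4 of 9 genes compared were lower over the whole library on Day 7 than on Day 3 (Ptgs2, Ptgis, Alox5ap and Ltc4s), where 8.03% of all genes were, and 0 were higher, where 10.2% of all genes were. The Ltc4s log2 ratio of -1.05 fell short of 2-fold without the 50 most abundant genes (-0.82) and under median-of-ratios scaling (-0.93). The Ptgis ratio of -1.43 was -0.16 as the mean of single-cell CPM. Between Days 7 and 14 Ptgis was lower and Ptgds and Hpgd were higher among 10 compared, against 8.15% and 9.75% of all genes, the Ptgis ratio of -1.13 becoming -0.77 as the mean of single-cell CPM. The median log2 ratio over all genes compared was -0.09 and -0.12.

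In fibroblast-like cells Ptgs2 and Ptgis were lower and Hpgds was higher on Day 7 than on Day 3 among 8 compared, against backgrounds of 9.53% and 10.1%. The Hpgds call rests on 8 UMIs on Day 3, its Day 7 level was under what macrophage RNA would bring, and its log2 ratio of 2.12 became 3.39 with doublets kept. Between Days 7 and 14, 4 of 9 were lower (Ptgs1, Ptgis, Hpgds and Alox5ap, background 8.45%) and Ptgds and Hpgd were higher (6.78%). Of these, Hpgds (-1.35) and Alox5ap (-1.68) were at -0.81 and -0.65 with doublets kept and lay near the level macrophage RNA would bring, and 44 of the 89 Ptgds UMIs of Day 14 were in 1 cell.

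In macrophage-like cells Ptgs2, Ptges and Alox5ap were lower on Day 7 than on Day 3 among 9 compared (background 4.6%) and Hpgds was higher (9.22%). Without the 50 most abundant genes the Alox5ap ratio of -1.18 was -0.95, and with each library clustered alone the Hpgds ratio of 1.27 was 0.89. For Day 14 over Day 7, Ptgs2 and Ptgis were lower among 10 (5.46%), Ptgis at the level of carried fibroblast RNA and at -0.49 in place of -1.40 with each library clustered alone, and Hpgd and Ptgds were higher (4.07%), Ptgds with 49 of its 58 UMIs in 1 cell. In dendritic cell-like cells Ptgs2 was lower on Day 7 among 5 compared (7.63%) and Ltc4s was higher (5.29%), on 11 and 54 UMIs, although the Ltc4s log2 ratio of 1.09 became -0.15 as the mean of single-cell CPM. On Day 14 Ptgs2 and Hpgds were lower there than on Day 7 (9.91%), Hpgds on 44 and 8 UMIs and in a direction that reversed under 3 of the alternatives, and Hpgd was higher (3.08%), its ratio of 1.98 becoming 0.71 with each library clustered alone and 0.89 with another random seed. In neutrophil-like cells Ptgs2 was lower among 3 compared (8.43%) and 0 were higher (12.4%).

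**Figure D5:**
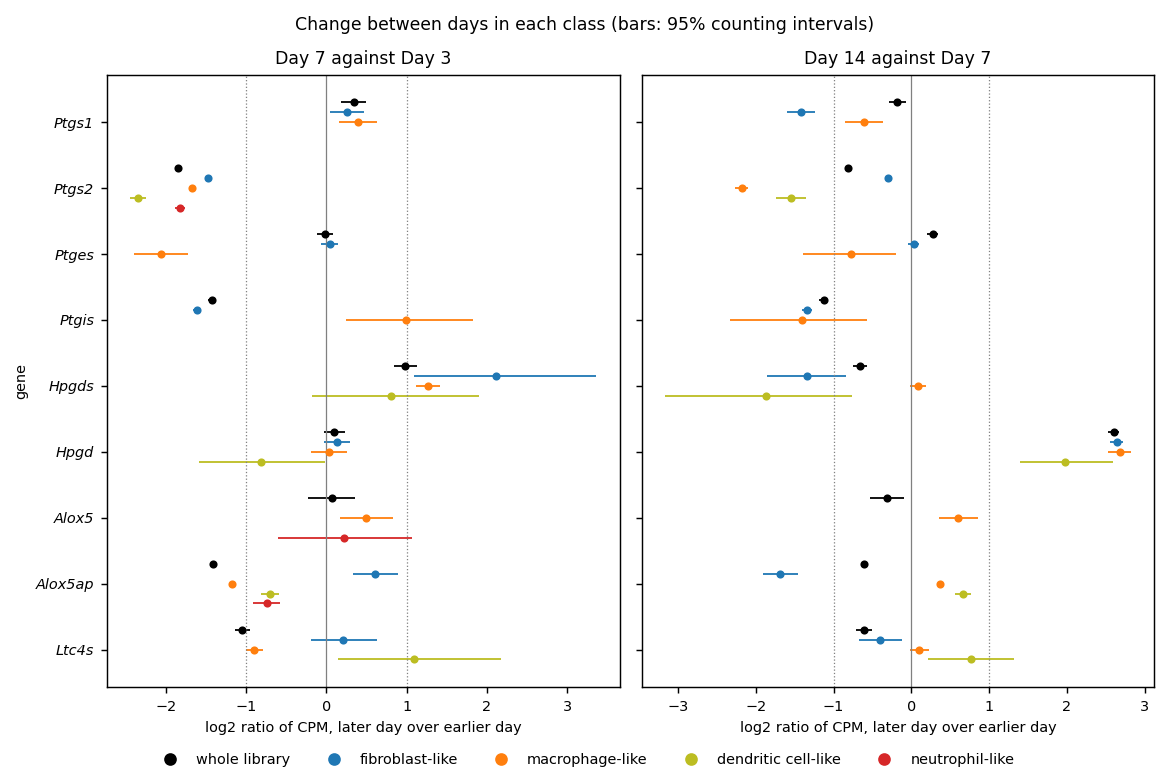
Log2 ratio of CPM between days (horizontal axis, later day over earlier day) for 9 enzyme genes with at least 50 UMIs over the pair of libraries; points are classes, bars are 95% exact conditional binomial intervals, and dotted lines mark 2-fold. Ptgds is left out because 1 cell held much of it in 2 classes. Ptgs2 lies left of 0 in every class drawn, and Hpgd lies near 2.6 for fibroblast-like and macrophage-like cells between Days 7 and 14.

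The rest of the pathway was taken from a list of 40 genes in 4 groups. Over the whole library 27 of them could be compared between Days 3 and 7, of which 2 were at least 2-fold higher and 6 lower, where 10.2% and 8.03% of all genes were (median log2 ratio -0.32, against -0.09 for all genes). Between Days 7 and 14, 33 were compared, of which 10 were higher and 4 lower, where 9.75% and 8.15% of all genes were (median -0.08, against -0.12).

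Among the 7 phospholipases, which release arachidonic acid, Pla2g4a, the cytosolic enzyme, was 33.7, 24.0 and 24.6 CPM over the library on Days 3, 7 and 14. Its log2 ratio from Day 7 to Day 14 was 0.04 (-0.05 to 0.12). Pla2g5, a secreted enzyme, was 0.0400 CPM on Day 7 and 2.71 CPM on Day 14. Pla2g6 was 2.50, 3.44 and 2.79 CPM.

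Among the 10 other synthases and lipoxygenases, Ptges3, the cytosolic prostaglandin E synthase, was 236, 191 and 180 CPM. Akr1b3, an aldose reductase, was 97.9, 89.1 and 77.1 CPM. Tbxas1, thromboxane synthase, was 85.7, 83.2 and 67.2 CPM in macrophage-like cells, and its library level fell from 25.0 to 9.55 CPM between Days 7 and 14. Alox12, Alox12b and Aloxe3, lipoxygenases of the epidermis, were the 3 members of this group that were 2-fold higher over the library on Day 14, when epithelial cell-like cells, the class of at least 50 cells in which each was highest, made up 5.44% of the cells against 0.240% on Day 7.

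Of 9 genes for transport and breakdown, Dpep1, a dipeptidase that acts on leukotriene D4, was 90.1, 62.9 and 132 CPM in fibroblast-like cells, the Day 14 over Day 7 log2 ratio being 1.07 (1.02 to 1.12). Slco2a1, the prostaglandin transporter, fell in fibroblast-like cells from 38.1 to 12.5 to 7.05 CPM and reached 124 CPM in endothelial cell-like cells of Day 14. Ggt5, which converts leukotriene C4 to D4, was 38.0, 23.6 and 12.6 CPM in fibroblast-like cells.

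Of 14 receptors, Ltb4r1, the main leukotriene B4 receptor, was 101 CPM in neutrophil-like cells on Day 3 and 72.4 CPM on Day 7. Over the library it fell from 25.4 to 9.56 CPM between those days, a log2 ratio of -1.41 (-1.54 to -1.28). Cysltr1, a receptor for the leukotrienes that follow from Ltc4s, was 149, 51.7 and 33.2 CPM in dendritic cell-like cells and 95.8, 78.9 and 58.0 CPM in macrophage-like cells. Ptger4, a prostaglandin E receptor, was 42.3, 40.4 and 39.1 CPM in macrophage-like cells, with log2 ratios of -0.07 and -0.05 whose intervals hold 0, and in fibroblast-like cells it rose from 6.54 to 9.23 to 15.5 CPM.

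Across the 22 pairs of class and day with at least 50 cells, the genes whose log2(CPM + 1) was most like that of each enzyme gene were ranked by Pearson's r among 13390 genes. The pairs include the unnamed cells of each day and leave out the melanocyte-like cells, which held most Ptgds UMIs of Day 14. The pairs of a day share a library and the value is a description. Alox5ap was closest to Spi1, the myeloid master factor (r = 0.98), Wfdc17 and Clec4n. Ptgis was closest to Lgi3 (r = 0.95), Bcat1 and Prg4, and Ptgs2 to Emilin2 (r = 0.92), Basp1 and Trim30d. Ptges was closest to Hoxc4, Hoxc8 and Vasn (r = 0.84, 0.84 and 0.83), and Ptgds to Dct (r = 0.84), Negr1 and Acta1. Hpgds was closest to Gpr34, C1qb and Gna15 (each 0.78 or 0.79), Ltc4s to Nceh1 (0.86), Daglb and Pik3r6, Alox5 to Tnf (0.88), Pstpip2 and Dok3, Hpgd to Abca9 (0.81), Klf4 and Insig1, and Ptgs1 to Fam160a1 (0.76), Serinc2 and Efna1.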

How the data were processed

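Wound cells were captured with the Chromium 3' v3.1 chemistry and sequenced on a DNBSEQ-G400RS instrument, 1 library a day. The deposited tables hold raw UMI counts per gene and barcode that the authors made, with Cell Ranger 6.0.0 and build mm10 per the submitters' processing notes, and the annotation release is not given in the sources used here. A 3' method counts molecules, so CPM carries no length factor. Cells were kept with at least 200 genes, 500 UMIs and at most 10% mitochondrial UMIs, and likely doublets (92, 1978 and 962 on Days 3, 7 and 14) were removed by scoring against simulated doublets among 50 neighbours, with a cap of 0.5 times the 0.8% per 1000 barcodes that such a run yields. Cells were clustered with scanpy 1.11.5 and the Leiden method of igraph 0.11.9 (2000 variable genes, 30 components, 15 neighbours, resolution 1), leaving out the enzyme and pathway genes and mitochondrial and ribosomal genes, into 29 clusters. Clusters were named from marker lists, and the scoring rule was adjusted after the clusters were seen. Mast cell-like and basophil-like cells were set cell by cell, from UMIs of at least 3 of their markers, whatever their cluster. Levels have exact Poisson, shares Clopper-Pearson and ratios exact conditional binomial intervals (scipy 1.17.1), and a library at 0 was set to 3 counts in a ratio. The ratio intervals were tested on simulated data: for Day 14 against Day 7 they held the true value for 98.5% of 200 changed and 95.5% of unchanged genes in fibroblast-like cells (13956 genes), and for 94% and 96.0% in macrophage-like cells (11380 genes). Coverage on simulated data does not show that the intervals hold for these libraries. No test was run, since each day has 1 library. The members, gene lists and thresholds were chosen with earlier results of these data known. All 10 members were named, then from each pathway group the 3 genes with the highest CPM in any class and day of at least 50 cells, and for each member the 3 genes with at least 200 UMIs and the highest r. The Alox12, Alox12b and Aloxe3 genes were named after their values were seen. The alternatives were other mitochondrial limits (5% and 20%), doublets kept, resolution 0.5, each library clustered alone, a class per cell from its own markers, CPM without the 50 most abundant genes, median-of-ratios scaling, mean single-cell CPM, 200 UMIs as the minimum, thinning to 1000 UMIs, and another random seed.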

Additional observations from a re-analysis of the deposited data

Results flagged for a closer look

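In 5 cases, over 3 members, the ratio between days lay above 0 in one class and below 0 in another with both intervals clear of 0. Each ratio compares 1 library with 1 library, and the difference between classes was not tested. From Day 3 to Day 7 Ptgis had a log2 ratio of 0.99 in macrophage-like cells (1.49 to 2.96 CPM) and -1.62 in fibroblast-like cells (317 to 103 CPM), and the macrophage-like values lay at or under what carried fibroblast RNA would bring. Alox5ap had 0.61 in fibroblast-like cells (6.63 to 10.1 CPM, where macrophage RNA would bring 3.01 and 8.39 CPM) and -1.18 in macrophage-like cells, and from Day 7 to Day 14 it had -1.68 in fibroblast-like cells (to 3.14 CPM) and 0.67 in dendritic cell-like cells. Ltc4s had 1.09 in dendritic cell-like (-0.15 as the mean of single-cell CPM) and -0.90 in macrophage-like cells from Day 3 to Day 7. From Day 7 to Day 14 it had 0.76 in dendritic cell-like (2.32 at resolution 0.5) and -0.40 in fibroblast-like cells. The dendritic cell-like Ccl22 and Ccr7 cluster of Day 14 held 120.2 CPM. Macrophage RNA would bring 8.66, 4.89 and 1.60 CPM of Ltc4s to the dendritic cell-like cells of Days 3, 7 and 14, against 6.82, 14.6 and 24.7 CPM measured.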

How the results depend on the processing

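No paired analysis was possible because each day has 1 library, and for the same reason no replicate could be left out. Of 604 log2 ratios recomputed under the alternatives, 466 stayed within their counting interval, 134 moved beyond it and 4 that were at least 2-fold reversed. The reversed values were those of Hpgds in dendritic cell-like cells from Day 7 to Day 14, -1.87 as reported, which became 1.91 at 20% mitochondrial UMIs, 1.58 with doublets kept and 1.90 at resolution 0.5, and of Ltc4s in the same class from Day 3 to Day 7, 1.09 as reported and -0.15 as the mean of single-cell CPM. Both rest on few UMIs. For Hpgds, the 40 unnamed Cd207 cells of Day 14 held 113 UMIs, against 8 in the dendritic cell-like cells of that day. The class that those cells took under the alternatives is not given here, and the cause of the reversals was not tested. Of 116 counts of members past 2-fold, 100 stayed within 1.5 times. Those higher over the whole library on Day 7 than on Day 3 went from 0 to 1 at 20% mitochondrial UMIs, without the 50 most abundant genes, under median-of-ratios scaling and as the mean of single-cell CPM, since the Hpgds ratio of 0.98 passed 1. In fibroblast-like cells from Day 3 to Day 7 those higher went from 1 to 2 with doublets kept and to 0 at 200 UMIs. From Day 7 to Day 14 those lower went from 4 to 2 with doublets kept, and those higher from 2 to 1 with a class per cell and at 200 UMIs. In macrophage-like cells from Day 3 to Day 7 those higher went from 1 to 2 with a class per cell, without the 50 most abundant genes and under median-of-ratios scaling. From Day 7 to Day 14 those lower went from 2 to 1 with each library clustered alone and at 200 UMIs, and those higher from 2 to 1 with a class per cell and at 200 UMIs. With doublets kept, the Day 7 over Day 3 ratio of Alox5ap in fibroblast-like cells was 1.82 in place of 0.61. At 20% mitochondrial UMIs no melanocyte-like class was found, so the Ptgds share there was 0. The Ptgs2 ratios of macrophage-like cells ran from -1.74 to -1.44 for the first pair of days and from -2.37 to -2.04 for the second, and the Hpgd ratio of Day 14 over Day 7 from 2.44 to 2.80 in fibroblast-like cells. Leaving out the 50 most abundant genes shifted all library ratios of Day 7 over Day 3 alike, that of Ptgs2 from -1.86 to -1.63. Another random seed, an alternative chosen after seeing the data, lowered the fibroblast-like share of Day 14 Hpgd UMIs from 84.4% to 70.0%. It also lowered that share for Ptges from 91.7% to 79.6%, for Ptgis from 98.1% to 88.8% and for Ptgs2 from 90.2% to 85.9%. With 1 library a day, no interval covers the spread between animals.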
